A study of Mus musculus with 8 samples.

Results

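The nuclear genome encodes most subunits of the machinery that makes ATP by oxidative phosphorylation, and 85 genes named for these subunits were followed here through the cell types of mouse lungs exposed to cigarette smoke (CS) or room air (RA). Genes were taken by the form of their symbol (Nduf, Sdh, Uqcr, Cox4 to Cox8 and Atp5 subunit names, without pseudogene or Gm symbols), which gave 85 of the 33,027 genes measured: 36 of complex I, 4 of complex II, 8 of complex III, 19 of complex IV and 18 of complex V. The annotation lists 3 of them, Cox6c2, Ndufa11b and Ndufs6b, as processed pseudogenes, and Atp5o stands in the table as 2 entries. The mean levels of these entries were at most 0.164 transcripts per 10,000 in any cell type. Cox4i1 and Ndufa13 were not analysed here. The data are single-cell RNA profiles (10x Genomics 3′ kit) of lungs from 8 C57BL/6 mice, 4 exposed to CS for 10 months and 4 kept in RA. All 8 mice, controls included, carried Sftpc-CreERT2 and the Rosa26 mTmG reporter and received tamoxifen at 8 to 10 weeks of age, before exposure, which switches cells that express Sftpc from the red to the green reporter. Each lung digest was recombined from sorted cells at a set ratio of CD45-positive to CD45-negative cells, so numbers of cells per type are not those of the tissue. The libraries were sequenced in 4 lanes, each holding 1 CS and 1 RA mouse.

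In oxidative phosphorylation, complex I (NADH dehydrogenase) and complex II (succinate dehydrogenase) pass electrons to ubiquinone, complex III (cytochrome bc1) passes them on to cytochrome c, and complex IV (cytochrome c oxidase) hands them to oxygen. Complexes I, III and IV pump protons out of the mitochondrial matrix, and complex V (ATP synthase) uses the returning protons to make ATP. Complex II is encoded wholly in the nucleus, whereas each of the others also holds subunits encoded in mitochondrial DNA. AT2 cells, which make surfactant and renew the alveolar epithelium, are rich in mitochondria, and the study asked about cellular metabolism in them.

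The 8 mice gave between 2553 and 6371 usable cells each, with a median of 4254 to 6473 unique molecular identifiers (UMIs, one per captured transcript molecule) per cell. Total UMIs per mouse, over all cells including those left out later, ran from 31882952 to 55485617. Of 75 marker genes measured over 24 marker lists, 66 were highest in the cell type they mark. The cells labelled mast held no Mcpt4, a protease of mature mast cells, in any of 7 mice, and little Kit (median 0.103 transcripts per 10,000), against 6.74 for Mcpt8, a basophil protease. Cpa3, whose human counterpart the study lists as a mast cell marker, had a median of 7.21, and Fcer1a of 5.04. The identity of these cells was not tested further, and they are called the cells labelled mast. Sex-linked transcripts went against the label in all 4 CS libraries and matched it in the 4 RA libraries, so CS and RA stayed comparable in the number of mice of each sex but no sex difference is reported. There were 197 cell barcodes found in more than 1 library among 40,909 distinct barcodes.

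Throughout, a level is the number of transcripts of a gene per 10,000 transcripts of a cell, averaged for each mouse and cell type, and n counts mice. Summed over the 85 genes, alveolar macrophages stood highest, with 154 ± 13.9 transcripts per 10,000 (SD, n = 8), followed by AT2 cells with 144 ± 11.4 (SD, n = 8) and ciliated cells with 139 ± 8.35 (SD, n = 8). Macrophages and AT2 cells were 10.6 apart, against a larger SD of 13.9. They changed places when mitochondrially encoded and dominant genes were left out of the total. At the other end were the cells labelled mast, with 60.4 ± 3.43 (SD, n = 7), erythrocytes, with 54.7 ± 5.88 (SD, n = 3), and neutrophils, with 52.7 ± 3.27 (SD, n = 8). The means pool CS and RA mice in unequal numbers for some types: erythrocytes came from 3 CS mice and no RA mouse, basal cells from 3 CS mice (mean 118) and 1 RA mouse (139), smooth muscle cells from 2 CS mice and 1 RA mouse and pericytes from 1 CS and 2 RA mice. Of the 26 cell types with at least 3 mice of 20 or more cells, 8 had a mean sum over 120: smooth muscle, mesothelial, AT1, classical monocyte and basal cells joined the leading 3. These levels are shares of a cell's total. In club cells (72.6 ± 3.37; SD, n = 8) Scgb1a1 alone took 3990 of 10,000 transcripts, so their low place depends on the scaling. Most neighbours in this order did not differ beyond the spread between mice. The exceptions were basal cells over natural killer and cytotoxic T (NK/T) cells, by 12.6, NK/T cells over adventitial fibroblasts, by 12, and club cells over the cells labelled mast, by 12.1, against larger SDs of 11.5, 10.8 and 3.43. General capillary (gCap) endothelial cells held 81.9 ± 4.46 (SD, n = 8), T cells 88.3 ± 9.18 (SD, n = 8) and alveolar fibroblasts 90.4 ± 9.22 (SD, n = 8).

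**Figure D1:**
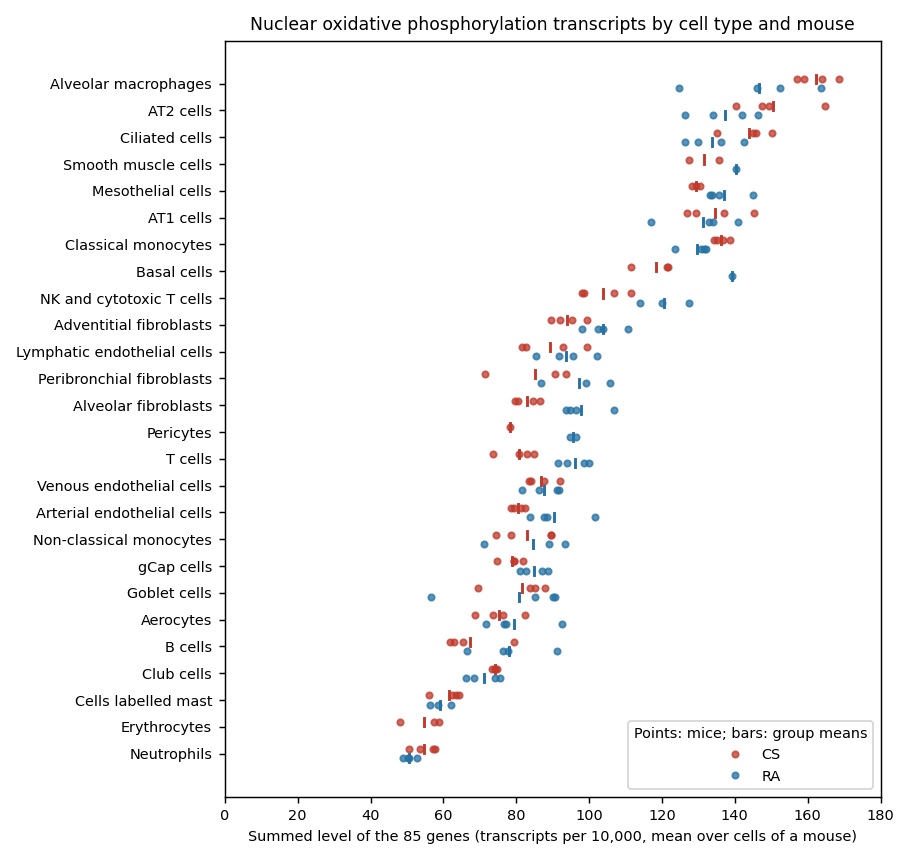
Summed level of the 85 genes (transcripts per 10,000, x axis) in 26 cell types (y axis), with 1 point per mouse, CS in red and RA in blue, and short bars for group means. Alveolar macrophages (mean 154) and neutrophils (mean 52.7) are the ends of the order, and the CS and RA points of T cells and of alveolar fibroblasts do not overlap. Macrophages and AT2 cells do not differ beyond the spread between mice.

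The complexes took unequal shares of this sum in different cell types. Complex I subunits made up between 24.2% (the cells labelled mast) and 34.5% (lymphatic endothelial cells), complex III between 9.35% (neutrophils) and 14.1% (the cells labelled mast), complex IV between 22.1% (lymphatic endothelial cells) and 30.2% (neutrophils), and complex V between 24.9% (pericytes) and 33.3% (T cells). The pericyte share rests on 3 mice: complex V summed to 15.4 of 78.3 transcripts per 10,000 in the 1 CS mouse and to a mean of 25.9 of 95.6 in the 2 RA mice, and aerocytes were next at 25.6%. Complex II, which has few subunits, took 2% to 4.59%, with the highest share in aerocytes, the capillary cells specialised for gas exchange. Counting single genes, 20 of the 85 had their highest mean in alveolar macrophages, 11 each in ciliated cells and classical monocytes, 10 in AT2 cells and 9 in smooth muscle cells, while 34 had their lowest mean in neutrophils and 22 in the cells labelled mast.

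The 5 genes of highest mean level over types, in transcripts per 10,000 counted, were Cox8a (a structural subunit of complex IV), Uqcrh (the hinge subunit of complex III), and Atp5e, Atp5h and Atp5b of ATP synthase, where Atp5b encodes the catalytic beta subunit. Cox8a ran from 1.59 in erythrocytes to 6.88 in NK/T cells, Uqcrh from 1.57 in aerocytes to 6.45 in classical monocytes, Atp5e from 1.19 in erythrocytes to 6.94 in alveolar macrophages, Atp5h from 1.52 in neutrophils to 5.45 in NK/T cells and Atp5b from 0.955 in neutrophils to 4.66 in ciliated cells. A few subunits stood out in one type. Cox5a, a nuclear subunit of complex IV, reached 7.05 ± 1.39 in alveolar macrophages (SD, n = 8; 5.2 to 9.57) against 3.32 ± 0.392 in ciliated cells (SD, n = 8), the type next in order, and was higher in 8 of 8 mice. Ndufc2, a complex I accessory subunit, was at 5.53 in ciliated cells and 3.95 in AT1 cells. Atp5c1, the gamma subunit that turns inside the ATP synthase head, was at 3.73 in classical monocytes and 2.06 in basal cells. Ndufb11, a complex I subunit encoded on the X chromosome, was at 3.61 in AT2 cells and 2.55 in mesothelial cells.

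Several subunits of complex IV exist as paired isoforms, some of them known from heart and skeletal muscle, and their use differed between lung cell types. Cox6a2, the isoform named for heart and muscle, lies on chromosome 7 of GRCm38 (128205435 to 128206387, minus strand). In AT2 cells its level was 1.23, 1.7, 1.54 and 1.22 in CS replicates 1 to 4 and 4.07, 1.1, 1.36 and 1.99 in RA replicates 1 to 4. Every other type had a lower mean, club cells being next at 0.0887 and AT1 cells at 0.0873, and AT2 cells were above club cells in 8 of 8 mice. RA replicate 1, the mouse with the highest value in AT2 cells, was also the highest in club cells, at 0.408. A Cox6a2 transcript was found in 59.3% of AT2 cells, whose median depth was 9434 to 15384 UMIs across mice, and in 2.52% of club cells. The other isoform, Cox6a1, was present in all types, highest in AT1 cells at 4.14 ± 0.375 (SD, n = 8) and at 2.66 ± 0.226 in AT2 cells (SD, n = 8).

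Ndufa4l2, related to the complex IV subunit Ndufa4 and known as a hypoxia-responsive gene, lies on chromosome 10 (127514967 to 127517154, plus strand). It was a pericyte transcript, with 6.54, 7.83 and 8.44 in the 3 mice with enough pericytes, against a mean of 1.13 in smooth muscle cells and 0.267 in adventitial fibroblasts. A Ndufa4l2 transcript was found in 86.6% of pericytes and 17.2% of smooth muscle cells. Cox4i2, the isoform of the Cox4 subunit known from lung and smooth muscle and not among the 85 genes by its symbol, had the same order: 21.6 ± 3.0 in pericytes (SD, n = 3) and 2.97 ± 1.55 in smooth muscle cells (SD, n = 3), with AT2 cells next at 0.102. Only 1 mouse had enough cells of both types, so this order was not tested.

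Cox6b2, known from testis, was highest in mesothelial cells and in some fibroblasts, at 0.918 ± 0.256 in mesothelial cells (SD, n = 7), 0.864 ± 0.191 in adventitial fibroblasts (SD, n = 8) and 0.808 ± 0.143 in alveolar fibroblasts (SD, n = 8), levels that did not differ beyond their spread, and at 0.630 ± 0.184 in alveolar macrophages (SD, n = 8). AT2 cells followed at 0.354. Other stromal types were low, at 0.0488 in peribronchial fibroblasts and 0.0129 in pericytes, and in smooth muscle cells it was at 0 in all 3 mice. Its counterpart Cox6b1 was highest in alveolar macrophages, at 5.81, with AT1 cells next at 3.74, and the order held in 8 of 8 mice. Cox8b, a further muscle isoform, was low: 0.176 ± 0.0734 in alveolar fibroblasts (SD, n = 8) and 0.124 ± 0.108 in lymphatic endothelial cells (SD, n = 8), with a transcript in 10.5% and 7.42% of the cells. Cox7a1 reached only 0.130, in AT1 cells, whereas Cox7a2 was at 3.62 in AT2 cells and 3.24 in AT1 cells, and higher in AT2 cells in 8 of 8 mice. Among the genes for subunit c of ATP synthase, Atp5g1 had its highest mean in mesothelial cells at 1.87, Atp5g2 in basal cells at 0.314 and Atp5g3 in alveolar macrophages at 3.36. The types next in order were smooth muscle cells (1.81), classical monocytes (0.264) and mesothelial cells (2.54). Within mice with both types, the first was higher in 2 of 3, 1 of 4 and 6 of 7 mice. The first place of Atp5g2 thus did not hold within most mice.

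**Figure D2:**
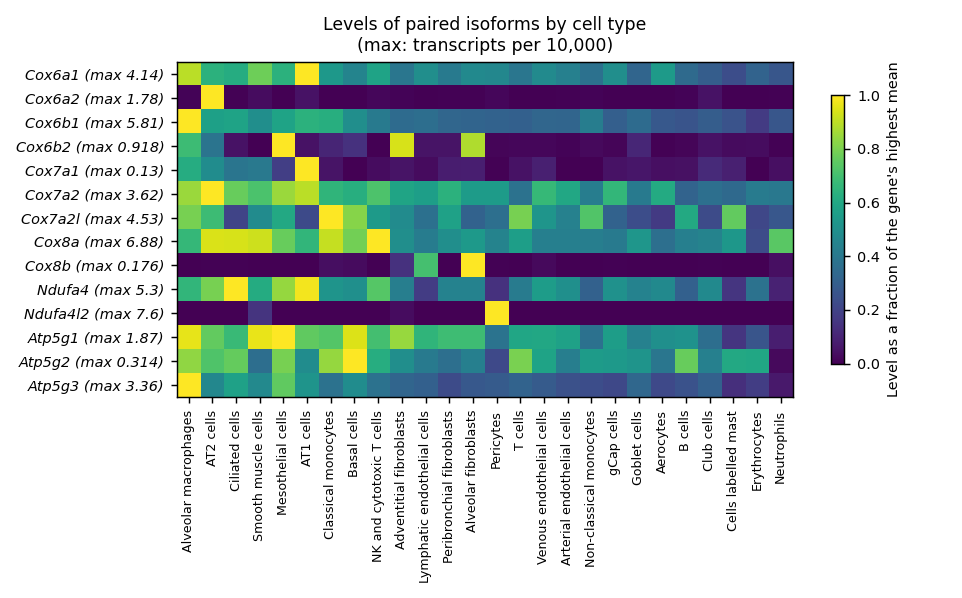
Levels of 14 isoform genes (rows) in 26 cell types (columns), each as a fraction (colour, 0 to 1) of that gene's highest mean, which is given in transcripts per 10,000 beside the symbol. Cox6a2 is bright in AT2 cells alone (1.78) and Ndufa4l2 in pericytes (7.60), while Cox6a1, Cox7a2 and Cox8a are present in all types.

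CS and RA mice were then compared gene by gene in each of the 22 cell types with at least 3 mice per group, by limma fitted to every gene with a transcript in 10% or more of cells in CS or in RA mice, and p-values were adjusted within the type by the Benjamini-Hochberg method at a threshold of 0.05. Of the 85 genes, 41 passed this filter in all 22 types, 80 in at least 1 and 5 in none, which made 1548 tests. Single genes passed in 4 of these tests: Sdhb, Atp5b and Uqcrc1 fell in gCap cells and Atp5g3 rose in ciliated cells. None passed in more than 1 type, and these 4 are named because they passed. No call was left with the p-values adjusted over all types together or without the filter on detection. Sdhb alone passed with cells thinned to 2000 UMIs, a setting that also left out cells below that depth. Over all 22 types together, 1.23% of gene tests passed. In the other 20 types, AT2 cells and alveolar macrophages included, no member passed. No gene of the whole table passed in AT2, B, T, NK/T and lymphatic endothelial cells or in peribronchial fibroblasts. The same was true of neutrophils, the cells labelled mast, and classical and non-classical monocytes. In these types the lack of calls says nothing particular to the members.

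**Figure D3:**
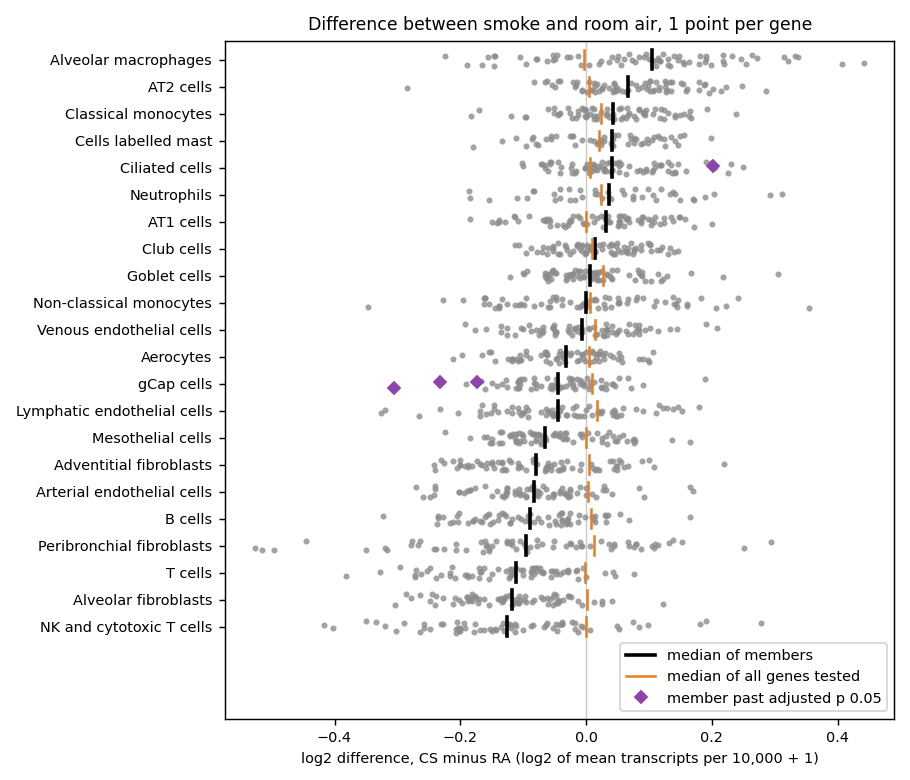
Difference between CS and RA (x axis, log2 of the mean level plus 1) for each gene tested, 1 point per gene, in 22 cell types (y axis), with the median of the members in black, the median of all genes tested in orange and members past the adjusted threshold as purple diamonds. Member medians run from 0.105 in alveolar macrophages to -0.126 in NK/T cells, while medians of all genes stay near 0.

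gCap cells are the more numerous capillary endothelial cells, known to renew the capillary bed. Sdhb, the iron-sulfur subunit of complex II, lies on chromosome 4 (140961203 to 140979193, plus strand). Its level was 1.31, 1.11, 1.21 and 1.2 in RA replicates 1 to 4 and 0.856, 0.890, 0.960 and 0.813 in CS replicates 1 to 4. All 4 CS mice lay below all 4 RA mice. The ratio of means was 0.728 (0.880 ± 0.0621 against 1.21 ± 0.0819; SD, n = 4 each), and the log2 difference -0.23 with a standard error of 0.046 and a limma adjusted p of 0.0274. Atp5b, the catalytic beta subunit of ATP synthase, lies on chromosome 10 (128083273 to 128090391, plus strand). It stood at 2.91, 2.93, 2.91 and 2.86 in RA mice and at 2.05, 2.43, 2.16 and 2.01 in CS mice, again without overlap. The ratio was 0.745 (2.16 ± 0.190 against 2.9 ± 0.0269; SD, n = 4 each), with a log2 difference of -0.31, a standard error of 0.064 and a limma adjusted p of 0.0290. Uqcrc1, a core subunit of complex III, lies on chromosome 9 (108936633 to 108949623, plus strand). It was at 0.865, 0.979, 0.900 and 1.02 in RA mice and at 0.748, 0.682, 0.780 and 0.667 in CS mice. The groups were apart here too, with a ratio of 0.765 (0.719 ± 0.0538 against 0.940 ± 0.0694; SD, n = 4 each), a log2 difference of -0.17, a standard error of 0.043 and a limma adjusted p of 0.0365.

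These 3 genes are 3 of 69 members tested in gCap cells, a share of 4.35% against 3.97% of all genes called lower in CS there, so the share of members called lower was near the background. No member was called higher, against 6.28% of all genes, and in either direction 10.3% of all genes were called. At an unadjusted limma p under 0.05, 13 of 69 members were lower, against 15% of all genes, and 1 of 69 was higher, against 20.3% of all genes. With the sequencing lane as a block, the limma adjusted p was 0.0726 for Sdhb, 0.0728 for Atp5b and 0.0792 for Uqcrc1, and no member passed in any type. Leaving out CS replicate 1, 3 or 4 or RA replicate 2 likewise left no call in any type, whereas all 3 remained called without RA replicate 1 or 3.

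Sdha, the flavoprotein partner of Sdhb in complex II, had the opposite sign in the same cells and missed the threshold. It passed only with genes in at least 25% of cells, with at most 5% mitochondrial transcripts or without RA replicate 3. It was at 1.19, 1.17, 1.32 and 1.34 in CS mice and 0.827, 1.02, 1.12 and 0.953 in RA mice, a log2 difference of 0.19 with a standard error of 0.056 and a limma adjusted p of 0.0552. It is thus the member with the largest positive difference in gCap cells, followed by the complex I genes Ndufs4 (0.09) and Ndufs6 (0.07), whose adjusted p in the same limma fit was 0.223 and 0.183. Atp5a1, the alpha subunit that alternates with the beta subunit in the ATP synthase head, was at 1.86 ± 0.0876 with CS and 2.27 ± 0.182 with RA (SD, n = 4 each), with a log2 difference of -0.19 and a limma adjusted p of 0.0674. The gCap cells compared numbered 4812 in CS and 5176 in RA mice, and their mitochondrial transcript share was 1.12 ± 0.353% with CS and 1.05 ± 0.150% with RA (SD, n = 4 each).

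Ciliated cells, which move mucus along the airways, gave the one call in the other direction. Atp5g3, one of the genes for subunit c of the ATP synthase rotor, lies on chromosome 2 (73908447 to 73911326, minus strand). It was at 1.65, 1.71, 1.72 and 1.79 in RA replicates 1 to 4 and at 2.11, 2.06, 2.25 and 2.09 in CS replicates 1 to 4. Every CS value exceeded every RA value, at a ratio of 1.24 (2.13 ± 0.0865 against 1.72 ± 0.0579; SD, n = 4 each), a log2 difference of 0.20, a standard error of 0.045 and a limma adjusted p of 0.0326. It was 1 of 76 members tested, where 2.72% of all genes were called higher. With the sequencing lane as a block, its limma adjusted p was 0.1. It was lost when any of CS replicates 1 to 4 or RA replicate 2, 3 or 4 was left out and stayed without RA replicate 1.

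**Figure D4:**
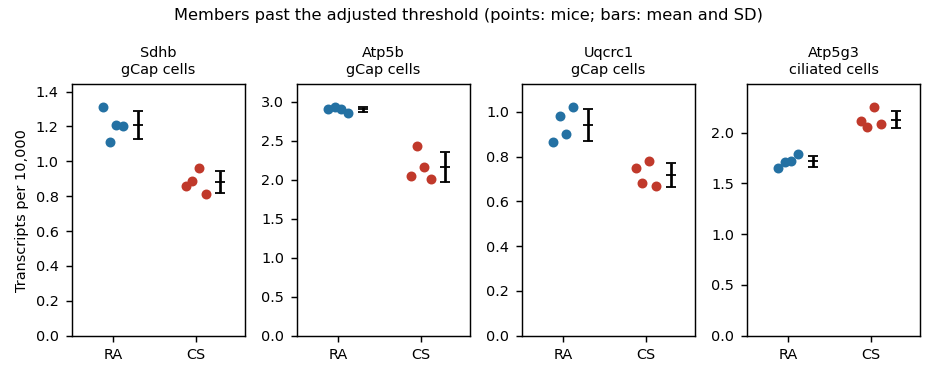
Levels (transcripts per 10,000, y axis from 0) of the 4 genes past the adjusted threshold, with 1 point per mouse in RA (blue) and CS (red) and bars for the mean and SD (n = 4 mice per group). CS and RA mice do not overlap in any panel: Sdhb, Atp5b and Uqcrc1 are lower in gCap cells of CS mice (ratios 0.728, 0.745 and 0.765) and Atp5g3 is higher in ciliated cells (ratio 1.24).

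The bases just before the start of these 4 genes are shown because they are the members with a called change, and nuclear genes of respiration are known to share GC-rich promoters bound by NRF1 and ETS-family factors. They come from the RefSeq promoter table (GRCm38.p6), run 5′ to 3′ on the strand of the gene, and end before the gene start of the GENCODE annotation. Capitals mark CG dinucleotides.
Sdhb (chr4:140961021-140961202, plus strand): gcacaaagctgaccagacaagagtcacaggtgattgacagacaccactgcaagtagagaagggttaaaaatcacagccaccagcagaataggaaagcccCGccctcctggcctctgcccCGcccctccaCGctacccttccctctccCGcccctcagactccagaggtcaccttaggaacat
Atp5b (chr10:128083057-128083272, plus strand): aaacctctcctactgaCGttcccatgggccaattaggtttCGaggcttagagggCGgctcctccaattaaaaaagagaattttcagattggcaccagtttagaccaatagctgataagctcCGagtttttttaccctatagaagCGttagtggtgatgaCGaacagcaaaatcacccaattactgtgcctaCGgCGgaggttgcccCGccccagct
Uqcrc1 (chr9:108936398-108936632, plus strand): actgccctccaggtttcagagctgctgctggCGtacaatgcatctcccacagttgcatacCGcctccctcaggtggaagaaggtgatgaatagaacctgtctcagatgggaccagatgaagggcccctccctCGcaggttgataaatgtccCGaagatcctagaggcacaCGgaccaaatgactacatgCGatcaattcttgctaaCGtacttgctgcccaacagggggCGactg
Atp5g3 (chr2:73911327-73911576, minus strand): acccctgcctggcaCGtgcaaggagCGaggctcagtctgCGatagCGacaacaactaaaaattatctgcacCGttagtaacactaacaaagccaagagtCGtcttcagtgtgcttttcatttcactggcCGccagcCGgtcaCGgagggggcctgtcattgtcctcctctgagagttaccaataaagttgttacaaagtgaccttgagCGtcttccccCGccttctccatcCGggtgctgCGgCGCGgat
These stretches hold 4, 9, 8 and 15 CG dinucleotides in 182, 216, 235 and 250 bases.

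Over the 250 bases before the RefSeq start, promoters of the members in the table had a median of 14 CG dinucleotides (71 promoters, 1 to 35), against 6 over all 32851 promoters. The NRF1 letters (GCGCA, any base, then GCGC, read on both strands) were found within 250 bases upstream of that start in 13 of the 66 members in the table (19.7%) and in 4.23% of all 27025 genes. The letters CCGGAAG (ETS family) were found in 12 of 66 (18.2%) against 7.83%, and AAGATGG followed by CGG (YY1) in 1 of 66 (1.52%) against 0.359%. None of the 4 promoters above holds any of the 3 strings. Sdha, the complex II gene of opposite sign in gCap cells, holds the NRF1 letters in 3 places, and Atp5c1 and Ndufa11, described next, in 1 each. The RefSeq start of Sdha and of Atp5c1 lies inside the gene as GENCODE annotates it, and so do the last Sdha match and the Atp5c1 match. Their surroundings are shown with the matched letters in capitals.
Sdha, first match (chr13:74350319-74350348, minus strand): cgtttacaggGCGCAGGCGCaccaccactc
Sdha, middle match (chr13:74350276-74350305, minus strand): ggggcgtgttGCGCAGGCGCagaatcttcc
Sdha, last match (chr13:74350241-74350260, minus strand): gcgactcggtGCGCAAGCGC
Atp5c1 (chr2:10080433-10080459, minus strand): ctgagctcccGCGCACGCGCactgagt
Ndufa11 (chr17:56717692-56717721, plus strand): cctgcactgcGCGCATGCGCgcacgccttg

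In AT2 cells no gene of the whole table passed the adjusted threshold (percent called 0), and 6 of 75 members had an unadjusted limma p under 0.05 with a higher level in CS, against 4.23% of all genes. The summed level was 164.7, 149.4, 147.4 and 140.2 in CS replicates 1 to 4 and 141.9, 126.4, 146.5 and 134.1 in RA replicates 1 to 4. The groups overlapped, with means of 150 ± 10.3 and 137 ± 8.85 (SD, n = 4 each) and a ratio of 1.1. More members lay above 0 (61 of 75) than genes at large (52.7%), with a median log2 difference of 0.07 for members (0.051 to 0.121 over 23 settings of the analysis) and 0.00 for all genes. The 3 largest positive differences were in Uqcr11 of complex III (3.15 ± 0.426 against 2.4 ± 0.336; log2 difference 0.29), Cox6c of complex IV (5.58 ± 1.12 against 4.52 ± 0.825; 0.25) and Atp5mpl, a small subunit of ATP synthase (1.87 ± 0.254 against 1.46 ± 0.161; 0.22), each SD with n = 4. Their limma adjusted p was 0.609, 0.741 and 0.609. At the negative end were Cox6a2 (-0.28), Atp5d (-0.08) and Ndufv1 (-0.06), also short of the threshold, with Cox6a2 and Atp5d both highest in RA replicate 1 (4.07 and 4.72), without which their log2 differences were -0.02 and -0.01.

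The study reported a set of respiratory genes as lower in COPD in a subset of human AT2 cells, by tests on single cells. Their mouse counterparts were checked as a list chosen from its human data, in mouse AT2 cells not divided into subsets. Of 14 counterparts tested, 12 had a difference above 0 in AT2 cells, as had 81.3% of all members and 52.7% of all genes. An unadjusted limma p under 0.05 was found for 0 of them, against 4.23% of all genes higher and 3.2% lower. The positive differences ran from 0.00 for Uqcrb to 0.25 for Cox6c, and included 0.20 for Atp5md, 0.19 for Uqcrq, 0.19 for Cox7c and 0.18 for Atp5e. Atp5d was at -0.08 and Ndufab1 at -0.01. The sign of Uqcrb turned under 3 other scalings or depths, given with the alternatives, and its level had a mean of 2.17 ± 0.0935 with CS and 2.18 ± 0.349 with RA (SD, n = 4 each).

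Alveolar macrophages, resident phagocytes of the air spaces, had a member median of 0.11 against 0.00 for all genes tested, and of 0.05 to 0.145 over 22 settings of the analysis. Of 73 members, 53 lay above 0 (49.2% of all genes), 5 were higher at an unadjusted limma p under 0.05 (5.12% of all genes), and none passed the adjusted threshold, which 0.53% of all genes did. Ndufa11, a membrane-arm subunit of complex I, had the largest difference. Its level was 2.02, 1.80, 2.28 and 1.26 in CS replicates 1 to 4 and 1.03, 1.07, 1.22 and 0.976 in RA replicates 1 to 4. The lowest CS mouse was just above the highest RA mouse, the log2 difference was 0.44 with a standard error of 0.137, and the limma adjusted p was 0.190. Next came Ndufa2 of complex I (4.17 ± 0.602 against 2.97 ± 0.983; SD, n = 4 each; 0.41) and Atp5k of complex V (2.48 ± 0.546 against 1.75 ± 0.355; SD, n = 4 each; 0.34). Atp5d (-0.22), Uqcrfs1, the Rieske iron-sulfur protein of complex III (-0.19), and Cox7a2l, a factor of respiratory supercomplexes (-0.17), had the largest negative differences. The summed level was 168.7, 163.9, 159.0 and 157.1 in CS replicates 1 to 4 and 146.1, 124.8, 163.7 and 152.5 in RA replicates 1 to 4. Its mean was 162 ± 5.21 with CS and 147 ± 16.4 with RA (SD, n = 4 each), a ratio of 1.1 with overlapping groups. RA replicate 2, the lowest mouse here, was also the lowest in AT2 cells (126.4). These values rest on 31 to 112 cells per mouse. Median UMIs per cell were 4661.3, 5053.7, 3252.4 and 9324.8 in CS replicates 1 to 4. In RA replicates 1 to 4 they were 5081.5, 9917.4, 5410.5 and 7903.8. The part of depth in these differences was not tested.

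The lower end of the comparison held stromal cells and lymphocytes. In alveolar fibroblasts, which support the alveolar wall, the summed level was 80.5, 79.7, 84.6 and 86.5 in CS replicates 1 to 4 and 107, 96.3, 94.8 and 93.6 in RA replicates 1 to 4. The groups did not overlap, at a ratio of 0.846 (82.8 ± 3.28 against 97.9 ± 6.05; SD, n = 4 each). Of the other gene sets in the same cells, the ratio was 0.785 for the mitochondrial ribosome, 0.837 for the tricarboxylic acid cycle and 0.789 for glycolysis, each without overlap, and 0.816 for the cytosolic ribosome, with overlap. The mitochondrially encoded subunits of the same complexes stood at a ratio of 1.01 (65.2 ± 15.1 against 64.8 ± 10.4; SD, n = 4 each), with overlap. Whether the members differed from these sets was not tested. Only 5 of 74 members lay above 0, against 50.8% of all genes, 23 had an unadjusted limma p under 0.05 with a lower level in CS (11.1% of all genes), and 20 did not overlap between groups (7.64% of all genes). None passed the adjusted threshold, which 1.37% of all genes did. The smallest p belonged to the complex I genes Ndufa12 (0.271 ± 0.00556 against 0.464 ± 0.0762; SD, n = 4 each; log2 difference -0.20) and Ndufb3 (0.996 ± 0.0612 against 1.4 ± 0.17; SD, n = 4 each; -0.26), picked out after their values were seen, with limma adjusted p of 0.0601 and 0.0766. Depth was alike, at 6206 to 8682 median UMIs per cell in CS mice and 5893 to 8930 in RA mice.

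T cells had a summed level of 83.1, 73.7, 84.9 and 80.8 in CS replicates 1 to 4 and 98.6, 99.9, 93.9 and 91.6 in RA replicates 1 to 4, a ratio of 0.840 (80.6 ± 4.90 against 96.0 ± 3.92; SD, n = 4 each). All CS mice were below all RA mice. The ratio was 0.801 for the mitochondrial ribosome and 0.913 for the tricarboxylic acid cycle, both without overlap, and 0.798 for glycolysis and 0.939 for the cytosolic ribosome, both with overlap. For the mitochondrially encoded subunits it was 1.2 (92.8 ± 10.7 against 77.4 ± 19.2; SD, n = 4 each), with overlap. Here 5 of 71 members lay above 0 (49.8% of all genes), 20 were lower at an unadjusted limma p under 0.05 (10.5% of all genes) and 12 did not overlap (7.18% of all genes). No member passed, as did no gene of the whole table (percent called 0), the smallest limma adjusted p of a member being 0.147. The sum was also lower in every CS mouse in NK/T cells (ratio 0.861; 104 ± 6.46, n = 4, against 120 ± 6.82, n = 3, SD), arterial endothelial cells (0.890; 80.4 ± 1.76 against 90.4 ± 7.74; SD, n = 4 each) and mesothelial cells (0.945; 129 ± 1.1, n = 3, against 137 ± 5.42, n = 4, SD). It was higher in every CS mouse in classical monocytes alone, at a ratio of 1.05 (136 ± 1.94 against 130 ± 3.94; SD, n = 4 each). Over the 22 types, 13 had a ratio under 1 and 9 over 1. The mitochondrial ribosome stood at a ratio of 0.843 in NK/T cells, 0.888 in arterial endothelial cells and 0.869 in mesothelial cells, each without overlap. Whether the members differed from it was not tested.

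By complex, the differences in alveolar fibroblasts were close to one another: the ratio of CS to RA was 0.849 for complex I, 0.832 for II, 0.838 for III, 0.835 for IV and 0.858 for V, each lower in every CS mouse. In T cells the ratios were 0.844, 0.812, 0.899, 0.844 and 0.816 in the same order, and the groups overlapped for complex III alone. AT2 cells had 1.09, 1.06, 1.12, 1.1 and 1.09, and all overlapped. Alveolar macrophages had 1.17 for complex I (46.3 ± 3.27 against 39.5 ± 5.2; SD, n = 4 each) and 1.03 to 1.12 for the others. In gCap cells the ratio was 0.968 for complex I and 0.882 for complex V, where 20.8 ± 0.867 in CS stood against 23.6 ± 0.872 in RA mice (SD, n = 4 each). Complexes III and V, to which Uqcrc1 and Atp5b belong, were lower in every CS mouse there, and complexes I, II and IV overlapped. No test was made of these sums.

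A difference called in one cell type and not in another does not show that the types differ, so the effect of CS in AT2 cells was set against that in gCap cells within the same mice. Of the 69 members tested in both, 5 had a more positive effect in AT2 cells by limma on the within-mouse difference: Atp5c1 (difference of the log2 effects 0.30, adjusted p 0.0366), Cox8a (0.29, adjusted p 0.0366), Atp5f1 (0.30, adjusted p 0.0396), Ndufb11 (0.24, adjusted p 0.0439) and Atp5b (0.28, adjusted p 0.0471). Of all genes, 1.12% passed in this direction. Atp5f1 encodes a subunit of the stator that holds the ATP synthase head in place. At an unadjusted limma p under 0.05, 27 of 69 members had a more positive effect in AT2 cells, against 10.9% of all genes. In sign alone, the effect was more positive in AT2 cells for 62 of 69 members (49.4% of all genes), and 40 (20.9% of all genes) had a positive difference in AT2 and a negative one in gCap cells.

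Atp5c1 shows the pattern. In AT2 cells it was at 1.92, 1.81, 1.99 and 1.62 in CS and 1.46, 1.52, 1.71 and 1.5 in RA replicates 1 to 4, and in gCap cells at 1.35, 1.49, 1.53 and 1.36 in CS and 1.57, 1.63, 1.80 and 1.80 in RA replicates 1 to 4. The CS mice lay mostly above the RA mice in AT2 cells and wholly below them in gCap cells, at log2 differences of 0.15 and -0.15. For Atp5b the gap came from gCap cells, since in AT2 cells it was at 3.22 ± 0.208 with CS and 3.28 ± 0.292 with RA (SD, n = 4 each). For Ndufb11 it came mainly from AT2 cells, at 3.90 ± 0.320 against 3.33 ± 0.291, with 1.47 ± 0.194 against 1.57 ± 0.102 in gCap cells (SD, n = 4 each). With the sequencing lane as a block no member passed, and with a pseudocount of 0.5 only 1 did. Leaving out any of CS replicates 1 to 4, or RA replicate 2 or 4, also left none, while 3 passed without RA replicate 1 and 6 without RA replicate 3.

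**Figure D5:**
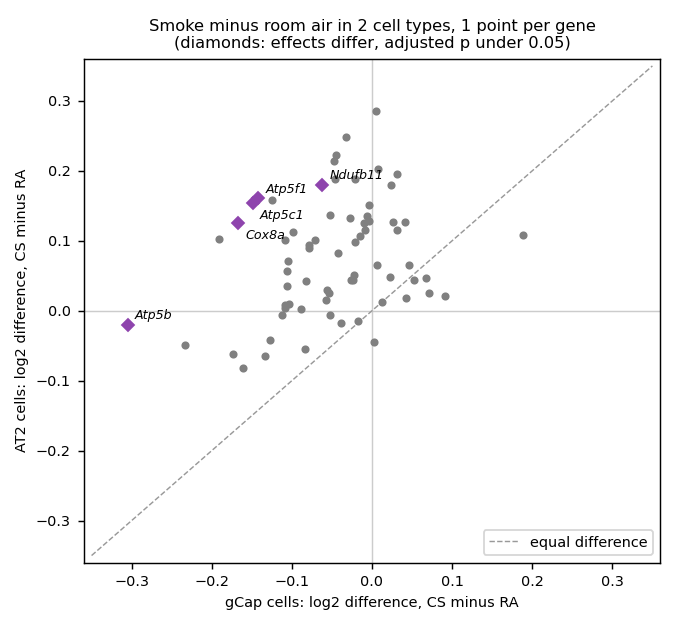
Difference between CS and RA in gCap cells (x axis) and AT2 cells (y axis), on log2 of the mean level plus 1, with 1 point per gene for 69 genes, a dashed line of equal difference and purple diamonds for the 5 genes whose effects differed (adjusted p under 0.05). Most points lie above the dashed line (62 of 69), and 40 lie at the upper left, positive in AT2 and negative in gCap cells.

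The same comparison of AT2 cells with each of the other 21 types was added after the data had been seen, and in 17 of them no member passed. All these comparisons share the AT2 values. In the 17, between 0% and 0.487% of all genes passed with a more positive effect in AT2 cells, and 2 to 28 members had a more positive effect at an unadjusted limma p under 0.05, with 0 to 3 more negative. The counts were 28 of 68 against NK/T cells (4.42% of all genes), 23 of 71 against arterial endothelial cells (6.47%) and 20 of 69 against B cells (6.5%), but 2 of 73 against alveolar macrophages (5.07%). Beside gCap cells, members passed against adventitial fibroblasts (Atp5f1, 0.35, limma adjusted p 0.0248, and Ndufa3, 0.26, limma adjusted p 0.0369; 0.58% of all genes passed in this direction), alveolar fibroblasts (Cox7b, 0.36, limma adjusted p 0.0365; 0.333%) and T cells (Ndufb11, 0.45, limma adjusted p 0.0474; 0.177%). In each the effect was more positive in AT2 cells. With the sequencing lane as a block none of these calls was left, and with a pseudocount of 0.5 only Atp5f1 was. Atp5f1, Ndufa3, Cox7b and Ndufb11 were each lost when any mouse other than RA replicate 3 was left out, and each passed without RA replicate 3. Cox7b, a small complex IV subunit, was at 0.876, 1.07, 1.02 and 1.01 in alveolar fibroblasts of CS replicates 1 to 4 and 1.56, 1.4, 1.33 and 1.2 in those of RA replicates 1 to 4, without overlap. In AT2 cells its means were 2.17 ± 0.0902 and 1.93 ± 0.173 (SD, n = 4 each). No member passed the limma test of a difference in effect between alveolar macrophages and gCap cells (0.424% of all genes passed with a more positive effect in macrophages). At an unadjusted limma p under 0.05, the effect was more positive in macrophages for 14 of 69 members, against 6.7% of all genes, and more negative for 1. Between aerocytes and gCap cells no member passed either (0.0334% of all genes passed with a more positive effect in aerocytes), and 0 of 69 were at an unadjusted limma p under 0.05 in either direction, against 4.06% of all genes with a more positive effect.

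The 13 protein-coding genes of mitochondrial DNA, whose products join the nuclear subunits in complexes I, III, IV and V, summed to 131, 117, 128 and 73.6 in alveolar macrophages of CS replicates 1 to 4 and 52.9, 51.7, 58.3 and 62.8 in those of RA replicates 1 to 4, a ratio of 1.99. The groups did not overlap, and 5 of the 11 tested rose (mt-Nd4, mt-Nd5, mt-Cytb, mt-Co1 and mt-Atp8), where 0.238% of all genes were called higher, the log2 difference of mt-Cytb being 1.01 with a standard error of 0.189 and a limma adjusted p of 0.0140. In AT1 cells, the thin cells of the gas exchange surface, the sum had a mean of 168 ± 12.9 with CS and 101 ± 7.80 with RA (SD, n = 4 each; ratio 1.67), and 6 of 11 rose, where 1.39% of all genes were called higher. The nuclear sum of AT1 cells differed little, at 135 ± 8.28 against 131 ± 10.1 (SD, n = 4 each). In neutrophils the sum was higher in every CS mouse too (17.2 ± 2.48 against 11.2 ± 3.05; SD, n = 4 each; ratio 1.53), and 0 of 5 tested passed, as did no gene of the whole table (percent called 0). At an unadjusted limma p under 0.05 were 3 of these 5, against 8.94% of all genes higher and 4.47% lower. Over the 22 types, 19 had a ratio over 1 and 3 under 1. In AT2 cells the ratio for the mitochondrially encoded genes was 1.03 and none passed, and in ciliated cells mt-Nd1 and mt-Nd2 rose, 2 of 11 tested, where 2.72% of all genes were called higher. The share of mitochondrial transcripts, which also serves as a sign of cell quality, was 2.16 ± 0.513% against 1.36 ± 0.120% in alveolar macrophages and 2.63 ± 0.459% against 1.76 ± 0.158% in AT1 cells (SD, n = 4 each), and the part of cell quality in these results was not tested.

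The calls in the lists that follow are to be read against 1.23% of all gene tests called, and against 3.97% of all genes called lower and 6.28% called higher in gCap cells. Among the subunits and partners whose symbols lie outside the set, Cycs, the electron carrier cytochrome c, fell in gCap cells (log2 difference -0.20, limma adjusted p 0.0290), the only call in 84 tests of 5 genes. Of 45 assembly factors, Cox19, a copper-handling factor for complex IV, fell in gCap cells (-0.12, limma adjusted p 0.0366), the only call in 573 tests. Of 74 genes of the mitochondrial ribosome, 7 calls in 1290 tests were all lower in CS: Mrpl9, Mrpl12, Mrpl42 and Mrps25 of 51 tested in gCap cells, Mrpl15 and Mrps12 in adventitial fibroblasts (1.19% of all genes called lower) and Mrpl39 in ciliated cells (1.91%). Of 14 regulators, Ppargc1a, a coactivator of mitochondrial biogenesis, rose in club cells (0.35, limma adjusted p 0.0410; 0.0778% of all genes called higher), the only call in 193 tests. The tricarboxylic acid cycle gave 2 calls in 323 tests, both higher: Suclg2 in gCap cells (0.25, limma adjusted p 0.0173) and Ogdh in ciliated cells (0.25, limma adjusted p 0.0381), where 2.72% of all genes were called higher. Glycolysis gave 4 calls in 309 tests, all lower: Tpi1 in AT1 cells (-0.34, limma adjusted p 0.0344; 0.992% of all genes called lower) and Tpi1, Pgk1 and Pgam1 in adventitial fibroblasts, where 1.19% were called lower.

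Some members share stretches of sequence with other annotated genes. In the last 500 bases of the transcripts, where 3′ reads fall, 68 of the 83 members with an annotated transcript shared no stretch of 90 bases with another gene. The others included Atp5l (68.9% of stretches shared), Atp5h (46.7%), Ndufs3 (39.7%), Cox7c (34.1%), Cox6c (13.6%), Cox5b (9.49%) and Atp5f1 (9%). Their levels are less certain for this reason, but by how much was not tested. Sdhb, Atp5b, Uqcrc1, Atp5g3 and Atp5c1 were among those with none shared.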

How the data were processed

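Single-cell RNA was sequenced from the lungs of 8 mice, 4 per group, grouped by the exposure given in the labels. The authors aligned reads with STAR 2.7.3a and STARsolo to GRCm38.p6, counted spliced and unspliced UMIs, removed free RNA with SoupX, filtered cells on unspliced, total and mitochondrial transcripts, and named the cell types. The deposited matrix holds expected counts (UMI counts after removal of free RNA, 1.2794% of them whole within 1e-06), so no count model was used. Cells labelled multiplet (1025) or cell cycle (7) were left out, which kept 40074 of 41106. 1574 of the kept cells held over 5% mitochondrial transcripts. No doublet caller was run beyond the authors' multiplet label.

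Each cell was scaled to 10000 transcripts, and means were taken per mouse and type for mice with at least 20 cells. CS was compared with RA by limma 3.58.1 (R 4.3.3, lmFit and eBayes with trend) on log2(mean + 1), a scale that understates changes of low genes, in types with at least 3 mice per group and for genes with a transcript in 10% or more of cells of one group. The adjustment was that of Benjamini and Hochberg, the threshold 0.05. The study itself tested single cells with Wilcoxon tests. Here mice are the replicates. Means used Python 3.11.15, numpy 2.4.6 and pandas 2.3.3. Intervals of error are between mice and include counting error.

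Genes to name were those called in at least 2 types (there were none), the 3 largest differences in each direction in AT2 cells, gCap cells and alveolar macrophages, the counterparts of the human genes, the paired isoforms and the 5 with the highest mean level. Other names, the 4 genes called in 1 type among them, were added after values were seen. The members and lists were chosen with earlier results of these data known. Replicate numbers were given in accession order and pair nothing. Correlations of the deviations of mice of 1 lane ran from -0.27 to 0.392 in gCap cells and from -0.167 to 0.297 in ciliated cells (1 of 4 lanes over 0.1 in each). In AT2 cells they ran from -0.098 to 0.042. Mice of different lanes reached 0.388 in gCap cells and 0.364 in ciliated cells. Alternatives covered pseudocount, detection, scaling, depth, mitochondrial share, lane, labelled sex and each mouse left out, and for differences of effect between types only a pseudocount of 0.5, lane and each mouse left out. Sex-linked transcripts went against the labelled sex in every CS library, so the term for labelled sex did not adjust for sex. The planned comparison of isoform proteins was not made.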

Additional observations from a re-analysis of the deposited data

Results flagged for a closer look

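In 166 groups of 4 mice checked for a single mouse far from the others, 7 had one, where chance gives about 1 in 20 (8.3 expected). In goblet cells, 1 RA mouse had a summed member level of 56.6 (others 85.2 to 90.7). The mitochondrially encoded subunits summed to 290.0 in ciliated cells of 1 CS mouse (others 246 to 250) and to 87.2 in mesothelial cells of 1 RA mouse (others 111 to 115). In AT2 cells, Atp5d was at 4.72 in 1 RA mouse (others 3.67 to 3.76), Atp5e at 7.56 in 1 CS mouse (others 5.18 to 5.42) and Atp5f1 at 2.94 in 1 RA mouse (others 3.33 to 3.37). In adventitial fibroblasts, Atp5f1 was at 2.18 in 1 RA mouse (others 1.91 to 1.94).

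The effect of CS differed between cell types for the following members, each by limma on the within-mouse difference of log2 levels. Against gCap cells, the effect in AT2 cells was more positive by 0.304 for Atp5c1, 0.294 for Cox8a, 0.304 for Atp5f1, 0.242 for Ndufb11 and 0.285 for Atp5b. Against adventitial fibroblasts it was more positive by 0.349 for Atp5f1 and 0.26 for Ndufa3, against alveolar fibroblasts by 0.359 for Cox7b and against T cells by 0.453 for Ndufb11. The comparisons with fibroblasts and T cells were chosen after seeing the data.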

How the results depend on the processing

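Over 23 settings the limma adjusted p ran from 0.0191 to 0.112 for Sdhb (16 passed), 0.0198 to 0.117 for Atp5b (15), 0.0255 to 0.13 for Uqcrc1 (13) and 0.0248 to 0.337 for Atp5g3 (12), with no change of sign. These counts include the main fit, and the setting of at least 50 cells per mouse, which left all these values unchanged. They also include the term for labelled sex, which sex-linked transcripts contradicted in the CS libraries. Members called in gCap cells (3) became 5 with genes found in at least 25% of cells, 0 without that filter, 0 with the lane as replicate block, 6 with summed counts, 1 with cells thinned to 2000 UMIs and 0 with adjustment over all types, and 0 to 5 with 1 mouse left out. The call in ciliated cells became 0 without the filter, with the lane block, thinned and over all types, and 0 to 2 with 1 mouse left out. At 25% detection, 1 member was called in adventitial and 2 in alveolar fibroblasts. Over all types, calls higher in CS (1) became 2 at 25% detection and with at most 5% mitochondrial transcripts, and 0 without the filter, with the lane block, thinned and over all types (0 to 2 with 1 mouse left out), and calls lower in CS (3) became 7, 0, 0, 6 (summed counts), 1 (thinned) and 0 (0 to 4 with 1 mouse left out). The lane block is a pairing by sequencing lane only. The 5 effects that differed between AT2 and gCap cells became 1 with a pseudocount of 0.5 and 0 with the lane as replicate block, and 0 to 6 with 1 mouse left out. Between macrophages and gCap cells the count was 0 to 1. Against adventitial fibroblasts (2), alveolar fibroblasts (1) and T cells (1), alternatives chosen after seeing the data gave 1, 0 and 0 with a pseudocount of 0.5, 0 each with the lane as replicate block, and 0 to 8, 0 to 3 and 0 to 4 with 1 mouse left out. In AT2 cells the log2 difference of Uqcrb turned to -0.010 (quantile normalization), -0.006 (total without dominant genes) and -0.084 (thinned), and ran from -0.063 to 0.051 with 1 mouse left out, Cox5b turned to -0.079 (thinned), and with 1 mouse left out Ndufab1 ran from -0.045 to 0.023, Ndufs8 from -0.038 to 0.076 and Atp5b from -0.055 to 0.023. As 2 to the power of the median log2 difference over members, a ratio of levels plus 1 that lies nearer to 1 than a ratio of levels, CS against RA gave 0.969 in gCap cells, 0.922 in alveolar fibroblasts, 1.03 in neutrophils and 0.926 in T cells. With counts summed per mouse and type, the CS to RA ratio of the summed member level in T cells was 0.899, against 0.84 from means over cells. With the other total, the order of types put AT2 cells at rank 1, macrophages 2, AT1 cells 4, smooth muscle 5, ciliated cells 6, mesothelial cells 7, classical monocytes 8, erythrocytes 24 and the cells labelled mast 25, and thinning put monocytes at 4, smooth muscle 5, mesothelial cells 6 and AT1 cells 7. Rank 3 under the other total went to a type that was not followed in this check. In RA mice only, Cox6b2 in mesothelial cells ranked 2, Cox7b in macrophages 2 and Atp5g1 in mesothelial cells 3, and with summed counts Cox8a in NK/T cells 2, Ndufa4 in ciliated cells 2 and Atp5g1 in mesothelial cells 4. The cause of these moves was not tested.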
